A study of Mus musculus with 8 samples.

Results

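Notch signaling genes were examined in left lobes of the mouse lung at embryonic stage E14.5, the mid-pseudoglandular stage. The set holds 10 genes: the receptors Notch1, Notch2, Notch3 and Notch4, the ligands Jag1, Jag2 and Dll4, and the target genes Hes1, Hey1 and Hey2. Members were chosen by gene symbol, and each gene was represented by its brightest spot. All 10 were measured, among 24583 genes on the array.

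The samples were 8 left lobes, each hybridized to a one-colour array, with 4 arrays labelled experimental and 4 labelled control and the numbers 1 to 4 given in the titles of each group. By the study's methods, experimental embryos had the transgene Tg(tet(o)sFgfr2b)/+ on a Rosa26 rtTA/rtTA genotype, and their littermate controls had Rosa26 rtTA/rtTA with no such transgene (+/+), so that both carried the reverse tetracycline transactivator at the ubiquitously active Rosa26 locus. All had been exposed to doxycycline, given to the mother as 1 intraperitoneal injection of 0.0015 mg per g body weight 9 h before harvest. In experimental embryos doxycycline induces a secreted, soluble Fgfr2b that captures Fgfr2b ligands throughout the embryo, not in the lung alone. The comparison of labels would ask whether the Notch pathway responds within this time only if the labels match the genotypes, which is taken up below. No source used here ties an array to a litter or day, so p-values measure only the spread between these 8 samples.

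Notch receptors are cell surface proteins that are cleaved when a Jagged or Delta-like ligand on a neighbouring cell binds them. The freed intracellular part enters the nucleus, joins the DNA-binding protein Rbpj and switches on target genes, among them the Hes and Hey repressors. In the developing airway, Notch signaling favours secretory over ciliated and neuroendocrine fates. In vessels it acts in arterial identity and in the smooth muscle and pericytes of the wall.

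Values are log2 signals, so that 1 unit is a 2-fold difference in signal. The signals had been quantile-normalized, and the median spot lay at 4.43 on each array. Genes were not ranked by signal, since probes differ in how they respond, and a signal is placed only against the median spot or the limits of the scale. The arrays numbered 1 and 2 in both groups differ from those numbered 3 and 4 in Etv5, an Ets factor induced by Fgf signaling in the distal epithelium. Its signal was 10.09 to 10.57 on the arrays numbered 1 and 2 and 13.11 to 13.26 on those numbered 3 and 4, and it differed by 0.03 (95% confidence interval −2.22 to 2.28) between the labelled groups. Etv5 thus does not separate the labels and gives no check that they match the genotypes, and whether they do could not be established here. A lack of difference between the labels is therefore no measure of the response to the soluble receptor. For this reason arrays are named by label, directions rest on those labels, and each Notch gene is also described by title number. The split of the numbers follows values already known from these arrays, so that numbers 1 and 2 against 3 and 4 are given with no test.

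None of the 10 Notch genes differed between the labelled groups beyond the spread between arrays, a statement about the labels and not about the soluble receptor. By limma, 0 of 10 had an adjusted p under 0.05 and 0 an unadjusted p under 0.05, and an unmoderated t-test likewise gave 0 and 0. Of all 24583 genes 0% passed the adjusted threshold and 3.56% the unadjusted one. In sign, 5 genes had a higher mean with the experimental label and 5 a lower one, and the median difference was −0.02, against 0.0043 over all genes. The 2 labelled groups overlapped in each of the 10 genes, whereas they did not overlap in 1.90% of all genes, 0.952% with the experimental arrays higher and 0.944% with the controls higher.

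**Figure D1:**
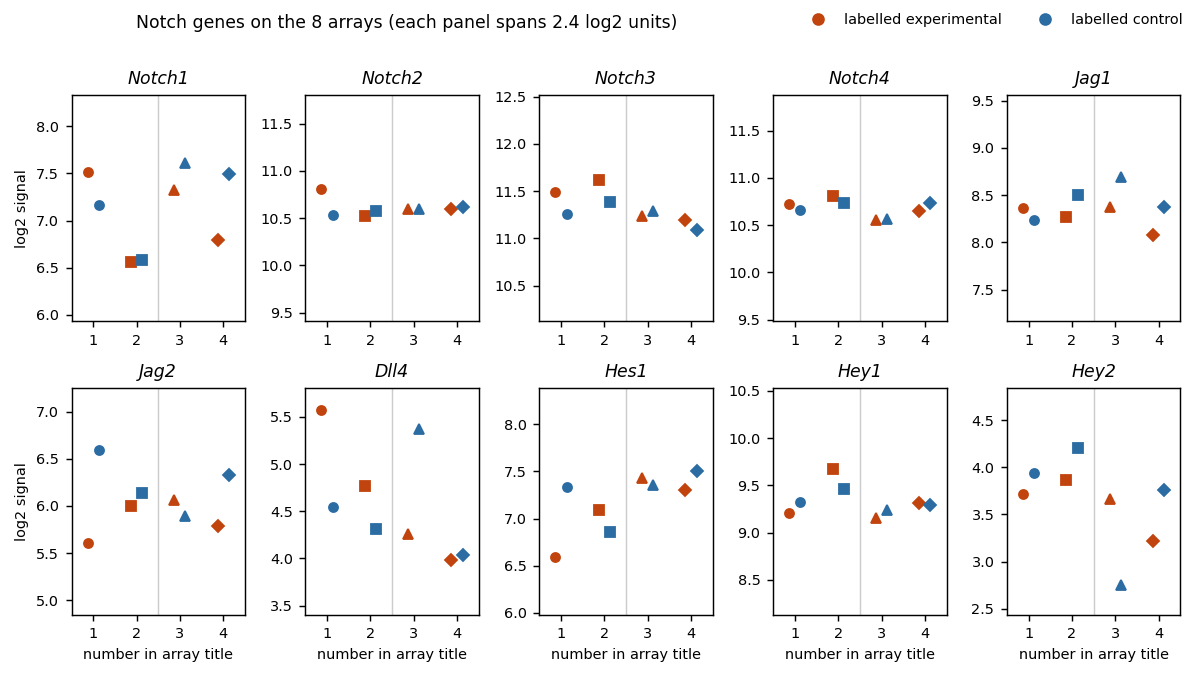
Log2 signal (vertical axis) of each Notch gene on the 8 arrays, placed by the number in the array title (horizontal axis) and coloured by labelled group. Marker shapes also stand for the number, and each panel spans the same 2.4 units. Notch2 and Notch4 varied by 0.29 and 0.25 units over the arrays, Dll4 and Hey2 by 1.59 and 1.46.

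Among the receptors, Notch4, which is expressed mainly by endothelial cells, had signals of 10.73, 10.81, 10.56 and 10.65 across the experimental arrays, by number, against 10.66, 10.73, 10.57 and 10.74 across the controls. The whole range was 0.25, and the arrays of both labels were interleaved. The difference was 0.01 (interval −0.21 to 0.24, limma). The list of 10 endothelial genes, such as Cdh5 and Kdr, had means of 10.87 to 11.04 in the arrays labelled experimental. In those labelled control the means were 10.76 to 10.95. Its members ran from Pecam1, at 7.46 to 7.75, to Egfl7, at 13.58 to 13.89. Of the 10, 9 had a higher mean with the experimental label, against 12585 of all 24583 genes, and 0 passed. Cldn5 alone was higher in the arrays labelled experimental without overlap, as were 0.952% of all genes. In whole lobes such as these, fewer cells of a type and less RNA per cell cannot be told apart.

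Notch2, a broadly expressed receptor, was nearly as even. It lay at 10.81, 10.52, 10.59 and 10.60 across the experimental arrays, by number, against 10.53, 10.58, 10.60 and 10.62 across the controls. Experimental 1 was the highest array, and the other 7 lay within 10.52 to 10.62. The difference was 0.05 (interval −0.18 to 0.27).

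Notch3, a receptor of pericytes and vascular smooth muscle cells, had 11.49, 11.61, 11.24 and 11.19 across the experimental arrays, by number, against 11.25, 11.39, 11.29 and 11.09 across the controls. Between the labels it differed by 0.13 (interval −0.17 to 0.42). The arrays labelled experimental were higher within 3 of 4 numbers, and the groups overlapped. The higher signals belonged to the numbers 1 and 2, at 11.25 to 11.61, against 11.09 to 11.29 for the numbers 3 and 4, which overlapped through control 1 and control 3 alone. The list of 8 smooth muscle and pericyte genes had means of 10.37 to 10.64 on arrays 1 and 2 and of 10.12 to 10.22 on arrays 3 and 4. In it 4 of 8 genes were higher on arrays 1 and 2 without overlap, as were 5.17% of all genes. These were the contractile genes Acta2, Myh11, Tagln and Cnn1. Des and the pericyte genes Pdgfrb, Rgs5 and Cspg4 overlapped between these pairs of numbers. The part of smooth muscle and pericytes in the Notch3 values was not tested.

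Notch1, the receptor with roles in both endothelium and airway epithelium, was the most spread of the receptors. It had 7.51, 6.56, 7.33 and 6.79 across the experimental arrays, by number, against 7.16, 6.59, 7.61 and 7.49 across the controls. Both arrays numbered 2 were low, and experimental 4 was the next lowest. The difference between the labelled groups was −0.17 (interval −0.81 to 0.48), and it had both signs within numbers, from −0.70 in number 4 to 0.35 in number 1. Its size rested on single arrays, at −0.0036 without experimental 2 and −0.37 without control 2, and the mean over both Notch1 spots gave 0.31, of the opposite sign.

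Further spots were annotated to some of these receptors. Notch1 and Notch2 had 2 spots each and Notch4 had 3. The dimmer spot of Notch1 had a mean of 4.14 and a range of 2.34, and that of Notch2 had a mean of 4.23 and a range of 1.04. Both dimmer spots of Notch4 had means under 3 and ranges of 2.06 and 1.54. Whether these dim spots rose above background could not be called, since scanner output was not used here.

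Jag1, a ligand found in vascular smooth muscle, endothelium and airway epithelium, had signals of 8.36, 8.27, 8.38 and 8.08 across the experimental arrays, by number, against 8.24, 8.50, 8.69 and 8.37 across the controls. Within 3 of 4 numbers the experimental array was the lower one, but the difference of −0.18 (interval −0.47 to 0.12) did not pass (limma, adjusted p = 0.9998). Jag1 is also active in the developing heart, and the list of 6 cardiac muscle genes had means of 8.52 to 9.05 in the arrays labelled experimental and of 9.01 to 9.27 in those labelled control. In it Myh6, Myl7, Tnnt2 and Myl4, genes of the contractile apparatus, were higher in each control than in each experimental array, 4 of 6 genes against 0.944% of all genes. Their unadjusted p were 0.0013 to 0.0071, and 0 of 6 passed adjustment (limma). Of the other members, Actn2 differed by −0.47 with overlap, and Nppa by 0.37, in the opposite direction. The part of cardiac tissue in the Jag1 values was not tested.

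The other Jagged ligand, Jag2, had the smallest p of the 10 genes between the labelled groups. It lay at 5.61, 6.0, 6.06 and 5.79 across the experimental arrays, by number, against 6.59, 6.14, 5.90 and 6.33 across the controls. Control 1, 2 and 4 were above every experimental array, and control 3 lay among the experimental arrays. The difference was −0.37 ± 0.17 (SE), with an interval of −0.77 to 0.02 and an adjusted p of 0.9998 (limma, unadjusted p = 0.060). Jag2 is known in stratified and airway epithelium as well as in endothelium. Its highest array was control 1. That array also had the highest mean of the list of 6 stratified squamous genes, at 7.86 against 5.40 to 5.68 on the other 7. The mean of the airway list was highest there too, at 8.99 against 8.16 to 8.51. Among single genes, Trp63 of the squamous list and Scgb1a1, Foxj1, Mcidas and Calca of the airway list were highest on another array. The part of these epithelia in the Jag2 values was not tested. Without control 1 the difference in Jag2 was −0.26. Without control 3 it was −0.49 and had an unadjusted p of 0.020, which did not pass adjustment (limma, adjusted p = 0.9998).

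Dll4, the Delta-like ligand of endothelial tip cells and arteries, had a signal near the median spot and varied most of the 10 genes. It had 5.57, 4.77, 4.26 and 3.98 across the experimental arrays, by number, against 4.54, 4.31, 5.37 and 4.04 across the controls. The 2 highest arrays, experimental 1 and control 3, carry different labels and different numbers. The difference of 0.08 had an interval of −0.82 to 0.97, so that the interval reached nearly 1 unit either way. It was −0.23 without experimental 1 and 0.34 without control 3.

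**Figure D2:**
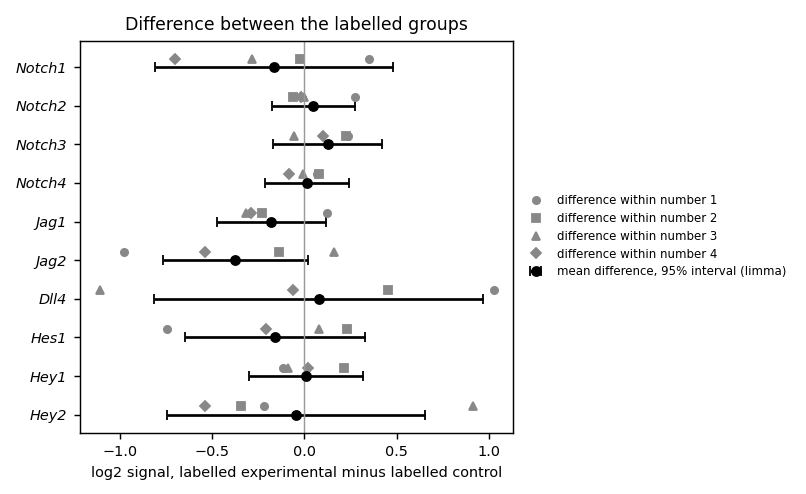
Difference in log2 signal (horizontal axis), labelled experimental minus labelled control, for each Notch gene. Black points and bars are the mean difference over 4 against 4 arrays and its 95% interval by limma, and grey markers are the differences between the arrays of each title number. Each interval includes 0, and Notch4 has the narrowest and Dll4 the widest interval.

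The targets showed no common direction. Hes1, a helix-loop-helix repressor induced directly by Notch, was at 6.59, 7.09, 7.43 and 7.30 across the experimental arrays, by number, against 7.34, 6.86, 7.35 and 7.51 across the controls. The difference between labelled groups was −0.16 (interval −0.65 to 0.33), with 2 numbers lower and 2 higher. Without experimental 1 it was 0.01 and without control 2 −0.30. By title number, Hes1 was at 6.59 to 7.34 on arrays 1 and 2 and at 7.30 to 7.51 on arrays 3 and 4. Control 1 was the only array of the lower numbers that reached the higher ones. The step from numbers 1 and 2 to 3 and 4 was 0.52 in the arrays labelled experimental and 0.33 in those labelled control. On the same arrays the list of 6 pan-epithelial genes had means of 10.88 to 11.19 and of 11.25 to 11.45, and 3 of its 6 genes (Epcam, Nkx2-1 and Cldn6) were higher on arrays 3 and 4 without overlap, as were 5.39% of all genes. Cdh1 differed by 0.18 in the same direction with overlap, whereas the keratins Krt8 and Krt18 differed by −0.07 and −0.11. The part of the epithelium in the Hes1 values was not tested.

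Hey1, a Hey repressor of arterial endothelium that also occurs outside vessels, had 9.21, 9.68, 9.15 and 9.31 across the experimental arrays, by number, against 9.33, 9.46, 9.24 and 9.29 across the controls. Both arrays numbered 2 were the highest of their group. The difference was 0.01 (interval −0.30 to 0.32). By number it ran opposite to Hes1 in sign, with a step of −0.21 in the arrays labelled experimental and −0.13 in those labelled control, and its numbers overlapped.

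Hey2, the related repressor of arteries and of the heart ventricle, lay below the median spot, at 3.72, 3.87, 3.66 and 3.22 across the experimental arrays, by number, against 3.94, 4.21, 2.75 and 3.76 across the controls. Control 2 was the highest array and control 3 the lowest, both of the same label. Its difference was −0.05 (interval −0.74 to 0.65), and without control 3 it was −0.35 and without control 2 it was 0.14. At this signal a level above background could not be established.

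The promoter of Hey2 is shown because it was the only one of the 8 members' promoters in the RefSeq table (GRCm38.p6) to contain the letters GTGGGAA, a core to which Rbpj binds, or their reverse complement TTCCCAC. The members not searched were Hes1 and Hey1. The search covered both strands of 250 bases before and 50 after the start of each gene. The share of all 32851 promoters that hold a match was 6.38%, and a match is a description of the letters and not of binding. The stretch below lies at chr10:30842781-30843033 on the minus strand and is written 5′ to 3′, with the 2 matches in capitals. The first begins 207 bases before the start and is on the opposite strand to the gene, and the second begins 4 bases before it and runs 3 bases past it.
Hey2: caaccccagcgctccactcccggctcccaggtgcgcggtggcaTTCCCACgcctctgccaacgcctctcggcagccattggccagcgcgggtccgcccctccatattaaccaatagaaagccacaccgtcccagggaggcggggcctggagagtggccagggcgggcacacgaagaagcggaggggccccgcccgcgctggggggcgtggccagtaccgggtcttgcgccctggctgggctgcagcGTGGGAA

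Across title numbers, the arrays numbered 1 and 2 overlapped those numbered 3 and 4 in each of the 10 Notch genes, whereas 10.6% of all genes did not overlap, 5.17% with numbers 1 and 2 higher and 5.39% with numbers 3 and 4 higher. Without a given array the count was 0 to 3 of 10, and 13.5% to 15.5% of all genes. The mean difference, numbers 3 and 4 minus 1 and 2, ran from −0.59 for Hey2 and −0.38 for Dll4 to 0.35 for Notch1 and 0.43 for Hes1. The 6 genes of the distal tip list, to which Etv5 and Sox9 belong, did not overlap in 6 of 6 and had a median step of 1.78 units, while the Notch genes had one of −0.09. This list holds the gene that led to the split, and its values are a description.

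The title number, taken as a label with 4 levels, was tested over all genes with the labelled group as a covariate. In this F test (limma) 0.0285% of all genes and 0 of the 10 Notch genes had an adjusted p under 0.05. The adjusted p of the 10 ran from 0.54 to 0.99. At an unadjusted p under 0.05 the counts were 9.84% of all genes and 0 of the 10. Notch1 had the smallest p (unadjusted 0.075, limma), with both arrays numbered 2 at 6.56 and 6.59. The fit leaves few degrees of freedom, and a p above the threshold does not show that the numbers were alike.

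**Figure D3:**
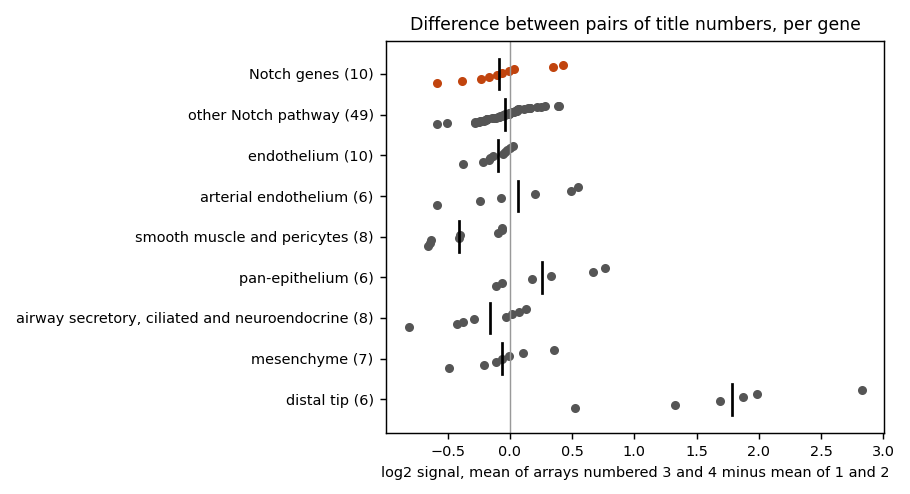
Mean log2 signal of the arrays numbered 3 and 4 minus that of the arrays numbered 1 and 2 (horizontal axis), with 1 point per gene, for the Notch genes, the other genes of the pathway and lists of cell type markers (rows, number of genes in parentheses). Black lines are medians. The Notch genes lie between −0.59 and 0.43, around a median of −0.09, and the distal tip list has a median of 1.78.

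The rest of the pathway was read from 51 further genes, of which 49 were measured. Between the labelled groups 0 of 49 passed (limma, adjusted p under 0.05). In sign 31 were higher and 18 lower, with a median of 0.02, against 12585 higher and 11998 lower of all genes. At an unadjusted p under 0.05 there was 1 of 49, Lfng, against 3.56% of all genes. Between title numbers 0 of 49 passed the F test, and 3 of 49 had an unadjusted p under 0.05, against 9.84% of all genes. In 6 of 49 the numbers 1 and 2 did not overlap the numbers 3 and 4, with 3 higher in each direction, against 10.6% of all genes.

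Lfng encodes Lunatic fringe, a glycosyltransferase that modifies Notch receptors and alters which ligands they respond to. It had signals of 6.83, 6.89, 6.98 and 6.95 across the experimental arrays, by number, against 6.40, 6.86, 6.24 and 5.99 across the controls. The array labelled experimental was higher within 4 of 4 numbers, but control 2 exceeded experimental 1 and so the groups overlapped. The difference was 0.54 (interval 0.13 to 0.94, limma, unadjusted p = 0.016) and did not pass adjustment (adjusted p = 0.9998). Of the other glycosylation enzymes, Pofut1, which adds O-fucose to the receptors, differed by −0.04 ± 0.11 (SE) and Poglut1, which adds O-glucose, by −0.10 ± 0.12.

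Of the other ligands, Dll1 (0.32 ± 0.28) and Dlk2 (−0.09 ± 0.19) had the smallest p between labelled groups. By number the divergent ligands Dll3 and Dlk1 went opposite ways. Dlk1, which lacks the receptor-binding domain of the canonical ligands, had signals of 14.63, 14.78, 15.14 and 15.07 across the experimental arrays, by number, against 14.56, 14.86, 15.12 and 15.04 across the controls, and so was higher on each array numbered 3 or 4. Dll3 was on average lower by 0.50 units there, at a signal near the median spot. Neither passed the F test (limma, adjusted p = 0.46 for Dlk1 and 0.48 for Dll3).

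In the group of proteases that cleave the receptor, 0 of 9 measured genes passed. Psen2, a catalytic subunit of γ-secretase, differed by 0.12 ± 0.11 and its partner subunit Aph1a by −0.08 ± 0.11 between labelled groups. Adam17, which can shed the receptor ectodomain, and Aph1c had the smallest p by number. Adam17 lay at 8.97 to 9.12 in both arrays numbered 4 and at 9.44 to 9.58 on the other arrays. Furin, which cleaves the receptor on its way to the surface, was at 15.86 to 15.99, close to the highest signal in the file, and could show little change.

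In the nuclear complex and its corepressors 0 of 12 passed. Rbpj itself, named as the factor of the motif above, lay at 9.69 to 9.94 in the arrays labelled experimental and at 9.73 to 10.07 in those labelled control. The coactivator Maml3 differed by −0.24 ± 0.15 and the corepressor Spen by 0.17 ± 0.11. By number, the Groucho-type corepressor Tle3 was higher by 0.28 on arrays 3 and 4 and the coactivator Maml2 lower by 0.28, both without overlap and neither past the F test (adjusted p = 0.51 and 0.55, limma).

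Of 12 genes of ligand endocytosis and receptor degradation, 10 had a higher and 2 a lower mean with the experimental label. Of all 24583 genes 12585 were higher and 11998 lower, and 0 of the 12 passed. The Deltex gene Dtx4 differed by 0.14 ± 0.09 and the ubiquitin ligase Itch by 0.19 ± 0.14 (SE). The ligases Mib2 and Neurl1a had the smallest p between numbers. On average they were lower by 0.28 and 0.18 on arrays 3 and 4, both with overlap. In Neurl1a the low arrays were those numbered 3, at 9.81 (experimental) and 9.71 (control). Those numbered 4 had 10.02 and 10.10, against 10.04 to 10.22 for numbers 1 and 2.

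Of 7 further targets, Heyl, another Hey gene, found in vascular smooth muscle, had the smallest p between labelled groups. It was at 10.07, 9.9999, 9.76 and 9.95 across the experimental arrays, by number, against 9.65, 9.86, 9.71 and 9.66 across the controls, higher in the array labelled experimental within 4 of 4 numbers. The groups overlapped, and the difference of 0.22 (interval −0.02 to 0.47) did not pass (limma, adjusted p = 0.9998). Nrarp, a feedback inhibitor of the Notch complex, differed by −0.20 ± 0.13. Hes7 was higher by 0.25 on arrays 3 and 4, without overlap. Hes3 was on average higher by 0.17 there, but with overlap. Its arrays numbered 3 were the highest, at 2.94 (experimental) and 2.68 (control). Those numbered 4, at 2.41 and 2.30, lay within the range of numbers 1 and 2, 2.25 to 2.53. All Hes3 signals, at 2.25 to 2.94, were close to the lowest signal of 2.00.

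For each Notch gene the genes most like it over the 8 arrays were found by the root mean square difference of log2 signals after subtraction of each gene's mean, a description over arrays that share the same lungs. For Notch4 these were Nnt, Robo4 and Tbc1d1 (0.03 to 0.04 units). A gene of small range, such as Notch4 at 0.25 units, is close to any of the searched genes that varies little. For Notch3 they were Fhod1, Robo1 and Ramp2 (0.03 to 0.05), for Notch2 Trrap, Fbxo7 and Hdac10 (0.02 to 0.04) and for Hey1 Angel2, Mrps6 and Ralb (0.06 to 0.07). Jag1 was followed by Raly, 4930519F09Rik and Miga1 (0.07 to 0.08), Hes1 by Pfdn4, AF067063 and Amd2 (0.10 to 0.11) and Jag2 by Rhox5, Nt5dc3 and Rrnad1 (0.10 to 0.12). Notch1 had 4932431P20Rik, Trpm1 and B020031M17Rik (0.16 to 0.18), and Hey2 had Fgfr1op2, Hoxaas2 and Cep83os (0.11 to 0.20). The nearest of the searched genes to Dll4, Lrrc23, S100a8 and A930007A09Rik, lay at 0.29 to 0.31 units.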

How the data were processed

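The authors extracted spot signals from the Cy3 scans with Mapix, corrected background by normexp on the negative control spots, and quantile-normalized the logged signals with limma. What was deposited are log2 signals after this normalization, for 62976 spots, with base 2 read from the ceiling of the values. Scanner output was not used here. All 8 value columns were used, and 2 spots lacking a value on 1 array were left out.

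Spots were named through the platform annotation (43941 with 1 gene symbol, 0 with several, 19035 with none). Symbols were updated through transcript accessions of the RefSeq gene table, which matched 33708 spots and changed 1424 names. Each gene was represented by the spot with the highest mean, as in the study.

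Differences were fitted with limma 3.58.1 in R 4.3.3, two-sided and unpaired as in the study, with Benjamini-Hochberg adjustment over 24583 genes and no filter, after tests on simulated data. Named were the 10 Notch genes, in each other pathway list the 2 genes with the smallest p between labelled groups and between numbers, the 3 genes most like each Notch gene, and Etv5. Genes beyond these were chosen after their values were seen. The members and lists were chosen with earlier results of these data known. Same-numbered arrays shared deviations from their group means (r = 0.109 to 0.146 across genes for the 4 numbers), and the number alone, from the titles, is the source of this pairing. Alternatives were the replicate block, the mean of all spots, bright genes only, a trended robust prior, an unmoderated t-test, no labelled group in the number test, and omission of each array.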

Additional observations from a re-analysis of the deposited data

Results flagged for a closer look

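The arrays of each labelled group were searched for 1 array lying far from the other 3 in each of the 10 Notch genes. In the 20 groups of 4 arrays searched, 0 held such an array, where chance alone would give about 1 in 20.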

How the results depend on the processing

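With the replicate number as a block the median difference of the Notch genes was −0.02 and 0 of the 10 genes passed, as in the unpaired fit, so that the block changed no call. Over 128 values of single Notch genes between labelled groups under alternatives 0 passed, and 2 had an unadjusted p under 0.05, both of Jag2 (0.043 among genes brighter than the median, limma, and 0.020 without control 3). In the same 2 fits 285 of the brighter genes and 998 of all 24583 genes were under 0.05. In 15 the sign was opposite to the difference given above. These were Notch1 and Notch4 under the mean of all spots (0.31 and −0.14), and others with 1 array left out, where Notch2 ran from −0.0101 to 0.0855, Notch4 from −0.0269 to 0.0573, Dll4 from −0.23 to 0.34, Hes1 from −0.30 to 0.0102, Hey1 from −0.10 to 0.0713 and Hey2 from −0.35 to 0.14. Over 118 values of the number test 0 passed, and the lowest adjusted p was 0.138 (limma, trended robust prior, Notch1). Unadjusted, 9 were under 0.05 (limma), 5 of Notch1 and 1 each of Notch3, Dll4, Hes1 and Hey2, the lowest being 0.00755 for Hey2 without experimental 3. In the main number test 9.84% of all genes were under 0.05, and the shares under the alternatives are not given here. The median difference of the 10 genes was −0.07 to 0.02 when 1 array was left out. The number of Notch genes whose arrays numbered 1 and 2 did not overlap those numbered 3 and 4 was 0 to 3 without 1 array. It was 3 without experimental 1 (Notch2, Hey1 and Hey2), 1 without experimental 4 (Hes1), 2 without control 1 (Notch3 and Hes1), 2 without control 3 (Notch3 and Dll4) and 2 without control 4 (Notch4 and Hey2). Fewer arrays make overlap less likely by construction. The share of all genes passing the number test was 0.0285%, and ran from 0% without any 1 array to 3.81% with the trended robust prior. Signals near the lowest value, as for Hey2, limit what could be seen.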
